A study of Mus musculus with 18 samples.

Results

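MUNC genomic cells are C2C12 mouse myoblasts that overexpress the genomic, unspliced form of MUNC, a long noncoding RNA encoded just upstream of the Myod1 gene. The comparison described here is the response of this line to differentiation medium, measured by RNA sequencing in 3 libraries from growth medium (GM) and 3 libraries after 3 days in differentiation medium (DM3), 6 of the 18 libraries of the study. The other libraries came from control C2C12 cells, labelled wild type, and from cells overexpressing the spliced form of MUNC, each also with 3 libraries in GM and 3 in DM3. Cells in GM had 20% fetal bovine serum and were collected at about 80% confluency, and cells in DM3 had been moved to 2% horse serum. All 6 groups share the C2C12 background and a PAX7-negative stock, per the labels, and the design text calls the 3 libraries of a group biological replicates. Whether the MUNC genomic cells are 1 clone or a pool, and what drives the transgene, is not given in the sources used here. The level of MUNC itself was not analysed here, so its overexpression was not checked. Groups were taken from the sample titles, because the source label (myoblasts or myotubes) and the title were at odds for 9 samples.

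Values are in FPM, the reads of a gene divided by a size factor of its library. The response of a gene is its mean log2(FPM + 1) in DM3 minus that in GM, and 13869 of 35275 listed genes were tested, those at 0.5 FPM or more in at least 3 of the 18 libraries. Rose and fell are used only for genes with a Benjamini-Hochberg adjusted p under 0.05 in limma, and errors after ± are SDs over 3 libraries. On this scale the change of a gene near 0 FPM is understated.

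When serum is withdrawn, C2C12 myoblasts leave the cell cycle, switch on the transcription factor Myog, fuse and build sarcomeres. Embryonic isoforms such as Myh3 precede adult ones, and acetylcholine receptor subunits are among the early targets of the myogenic factors. Genes of DNA replication and mitosis are held down in resting cells by complexes of E2F and pocket proteins that bind their promoters. Interferon-stimulated genes answer type I interferon signalling and are low in most resting cells.

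Depth was 47534027 to 68788327 reads in MUNC genomic GM and 50964504 to 63964247 reads in MUNC genomic DM3. Libraries correlated at r of 0.986 to 0.995 within GM, 0.994 to 0.996 within DM3 and 0.924 to 0.959 between the media. The first principal component of the 6 libraries held 87.7% of the variance and separated the media, and GM replicate 3 lay farthest out on it. Fn1, the matrix protein fibronectin, took 0.407% to 0.884% of all FPM in GM and 1.71% to 3.87% in DM3. The myoblast markers Myf5, Des, Cdh15 and Itga7 were present in all 6 libraries, with Myf5 at 24.3, 30.1 and 25.8 FPM in GM and 34.4, 33.8 and 20.0 FPM in DM3. Pax7, labelled absent, had 0, 1 and 0 reads in GM and 6, 4 and 2 reads in DM3. Among the myotube markers Myh8 was at 0 in all 6 libraries, and Ckm, the muscle creatine kinase, went from 1, 0 and 0 reads in GM to 91, 363 and 169 reads in DM3. In such bulk libraries, more myotubes and more muscle RNA per cell cannot be told apart.

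Between GM and DM3, which differ in serum and in time of culture, 7127 of the 13869 genes changed in MUNC genomic cells (51.4%). Of these, 3643 rose (26.3%) and 3484 fell (25.1%), and without GM replicate 3 the counts were 2997 and 2937. The counts of each gene list below are to be read beside these shares of 26.3% and 25.1%. An absolute log2 change of at least 1 was reached by 1003 of the genes that rose and 1049 of those that fell, and one of at least 3 by 62 and 88. The median change of all tested genes was 0.02. The 3 DM3 libraries did not overlap the 3 GM libraries for 62.8% of the tested genes, with 62.4% in control and 44.6% in MUNC spliced cells. In control cells 8078 genes were called (58.2%), 4111 of them higher (29.6%), and 4933 in MUNC spliced cells (35.6%). Of the genes that rose in MUNC genomic cells, 2617 also rose in control cells, which is 71.8% of the MUNC genomic and 63.7% of the control list. The genes that fell in both lines numbered 2763, 79.3% and 69.7% of the lists. With MUNC spliced cells the shared genes were 1527 among those that rose (41.9% of the MUNC genomic and 63.9% of the MUNC spliced list) and 1968 among those that fell (56.5% and 77.3%).

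**Figure D1:**
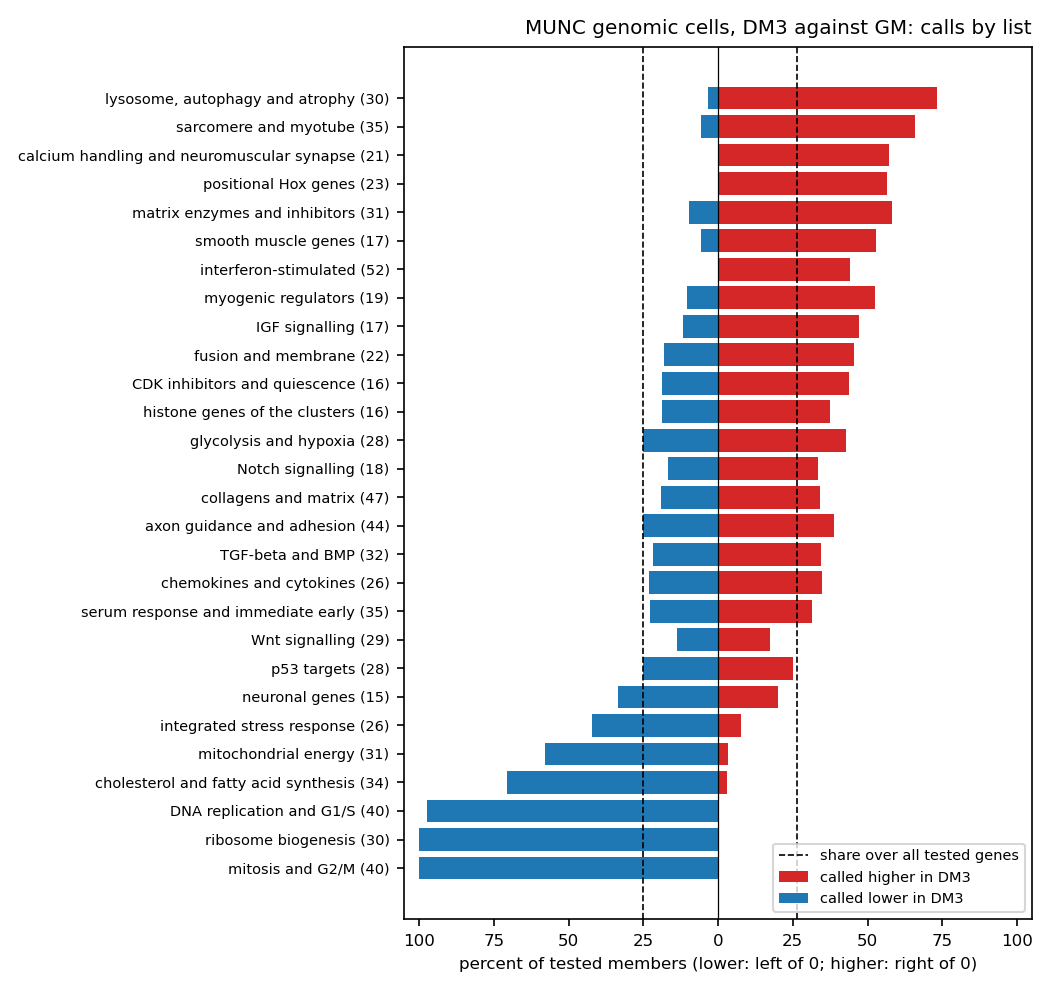
Members of each gene list that rose or fell in MUNC genomic DM3 against GM, as a percentage of the tested members of the list on the horizontal axis, with the percentages over all tested genes (26.3% and 25.1%) drawn as lines. The DNA replication, mitosis and ribosome biogenesis lists lie almost wholly on the falling side, and the lysosome, sarcomere and calcium handling lists lie mostly on the rising side.

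The 12 genes that rose most, among those at 5 FPM or more in one medium and with no overlap between the media, were led by secreted proteins. Clu, which encodes the extracellular chaperone clusterin (ENSMUSG00000022037, chr14:65968483-65981547 in mm10), went from 1.32, 1.32 and 0.735 FPM in GM to 43.7, 98.1 and 65.1 FPM in DM3 (log2 change 4.98, SE 0.33, adjusted p 5.20e-08). All 3 DM3 libraries were far above all 3 GM libraries. Dcn, the collagen-binding proteoglycan decorin, went from 4.98, 12.5 and 1.07 FPM in GM to 240.4, 187 and 114 FPM in DM3, a log2 change of 4.98. Cp, the copper-carrying ferroxidase ceruloplasmin, went from 11.7, 18.7 and 3.57 FPM in GM to 269, 309.5 and 398 FPM in DM3, a log2 change of 4.95. The GM values of Dcn and Cp differed among replicates, with replicate 3 the lowest of both. Fam107a, an actin-associated protein, changed by 4.71 and Osr2, an odd-skipped family transcription factor, by 4.69, each from under 1 FPM in every GM library to between 23.4 and 42.2 FPM in DM3. Tnnt1, slow skeletal troponin T, changed by 4.54. Trdn, the triadin that anchors calsequestrin at the calcium release channel, changed by 4.33. The other 5 were Txnip, an inhibitor of thioredoxin (4.48), the aggrecan-cleaving protease Adamts4 (4.45), the acid phosphatase Acpp (4.13), the sodium channel family member Scn7a (4.02) and the secreted guidance protein Sema3c (3.98).

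The 12 genes that fell most, also chosen among those with no overlap between the media, were mostly genes of DNA replication. Krt14, a keratin of basal epithelial cells (ENSMUSG00000045545, chr11:100203162-100207548 in mm10), went from 66.8, 35.2 and 79.8 FPM in GM to 1.56, 0.618 and 0.663 FPM in DM3 (log2 change -4.94, SE 0.47, adjusted p 1.08e-06). Lrp8, a receptor for reelin and apolipoprotein E, went from 79.6, 60.8 and 85.8 FPM in GM to 3.19, 2.86 and 2.69 FPM in DM3, a log2 change of -4.27. Neither gene's DM3 libraries came near its GM libraries. Cdc6, which loads the replicative helicase, fell by 3.95 on the log2 scale, and the replication genes Mcm5 and Mcm10 by 3.84 and 3.73. Rrm2, a subunit of ribonucleotide reductase, changed by -3.85, Uhrf1, which recruits the maintenance DNA methyltransferase, by -3.85 and the histone chaperone Asf1b by -3.68. The transcription factors Mybl2, E2f7 and Sox11 changed by -3.91, -3.77 and -3.72. The last gene, 2810417H13Rik, which encodes a PCNA-binding protein, changed by -3.69.

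Of 30 myogenic regulators 19 were tested, and 10 rose and 2 fell (52.6% and 10.5%, beside 26.3% and 25.1% of all genes), with a median log2 change of 0.63. Myod1 (ENSMUSG00000009471, chr7:46376474-46379099), the factor that specifies the muscle lineage, went from 1.66, 2.87 and 6.99 FPM in GM to 18.1, 22.5 and 14.5 FPM in DM3 (log2 change 2.13, SE 0.41, adjusted p 4.22e-04). Every DM3 library was above every GM library, and GM replicate 3 held the highest GM value. Myog (ENSMUSG00000026459, chr1:134289989-134292548), which drives terminal differentiation, went from 0.143, 0.101 and 0 FPM in GM to 7.89, 14.7 and 6.50 FPM in DM3 (log2 change 3.23, SE 0.45, adjusted p 2.55e-05), which was 10, 6 and 0 reads against 399, 977 and 333. DM3 replicate 2 had the highest Myog. Mef2a, a partner of the myogenic factors, rose by 1.47. Cdh15, the M-cadherin of myoblast contacts, went from 22.9 ± 5.81 to 99.9 ± 17 FPM (log2 change 2.10, SE 0.23, adjusted p 3.15e-06). Myf5 and Mef2d did not pass the test, at 0.10 (SE 0.17) and 0.25 (SE 0.17). Id2, an inhibitor of myogenic factors, fell by 1.76, but without GM replicate 3 its change was -1.09 and not called. Myod1 was near 0 in control DM3, at 0.0768, 0 and 0.221 FPM. In control cells Myog changed by 0.38 (adjusted p 0.491) and in MUNC spliced cells by 3.02 (adjusted p 1.28e-04). Of the 19 tested members, 11 rose and 3 fell in control cells (median 0.58; 29.6% and 28.6% of all genes). In MUNC spliced cells 8 rose and 0 fell (median 0.53, beside 17.2% and 18.4% of all genes). The difference of response from control was called higher for 4 members and lower for 2 (3.56% and 5.25% of all genes).

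Chrna1, the alpha subunit of the muscle acetylcholine receptor and a textbook target of myogenic factors, went from 29.5, 47.9 and 35.1 FPM in GM to 182, 206 and 164 FPM in DM3 (log2 change 2.29, SE 0.28, adjusted p 6.83e-06). Its promoter is shown because it carries the E-box of myogenic factors. These are the 250 bases before the RefSeq start on the minus strand of GRCm38.p6, chr2:73580339-73580588, with both matches to CAGCTG in capitals, beginning 92 and 44 bases before the start.
Chrna1: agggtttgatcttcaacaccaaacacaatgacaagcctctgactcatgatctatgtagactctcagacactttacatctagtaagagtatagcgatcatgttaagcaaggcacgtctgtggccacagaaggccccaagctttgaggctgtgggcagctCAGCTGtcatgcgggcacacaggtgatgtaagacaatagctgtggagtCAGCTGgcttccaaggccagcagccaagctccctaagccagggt
CAGCTG, which reads the same on both strands, occurred in 12.7% of all 27025 promoters of this length and in 11.9% of the promoters of tested genes. A match describes the letters and does not show a bound site.

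Genes of the contractile apparatus rose as well. Of 53 sarcomere and myotube genes 35 were tested, and 23 rose and 2 fell (65.7% and 5.71%), with a median of 1.19. The same list had a median of 0.28 in control and 1.55 in MUNC spliced cells. Myh3 (ENSMUSG00000020908, chr11:67078300-67102291), the embryonic myosin heavy chain, went from 0.301, 0.152 and 0.0630 FPM in GM to 7.66, 13 and 8.27 FPM in DM3 (log2 change 3.15, SE 0.48, adjusted p 5.88e-05). GM libraries held almost no Myh3 and every DM3 library held some. Mylpf, the fast skeletal regulatory light chain, rose by 3.65 (from 0.651 ± 0.123 to 20.9 ± 9.72 FPM), and the fast troponin T gene Tnnt3 by 3.16 (from 1.47 ± 1.11 to 20.2 ± 6.23 FPM). Ttn, the giant spring protein titin, rose by 2.48, the M-band protein Myom2 by 3.04 and the actin cross-linker Actn3 by 2.22. Slow and fast troponin I, Tnni1 and Tnni2, rose by 1.5 and 1.73. Mybph, a myosin-binding protein, had 0 reads in GM and 108, 366 and 123 in DM3, at least 64.2-fold higher against a floor of 3 reads per library.

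Acta1, skeletal alpha-actin, went from 5.91, 6.55 and 12.1 FPM in GM to 19.3, 30.7 and 15.5 FPM in DM3 and missed the threshold (log2 change 1.32, SE 0.59, adjusted p 0.0721), although the DM3 libraries were all above the GM libraries. Actc1, cardiac alpha-actin, rose by 1.42, with 0, 1 and 4 reads in GM and 103, 120 and 75 in DM3. These paralogs, and the myosin cluster, are near-identical over long stretches, so that reads may have been divided between them. Myh1, an adult fast myosin heavy chain, was at 0.0267 ± 0.0307 FPM in DM3, and Xirp2 was at 0. Eno3, muscle enolase, fell by 1.09, and the cardiac troponin T gene Tnnt2 fell by 1.11, a call that was lost under 4 alternatives.

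**Figure D2:**
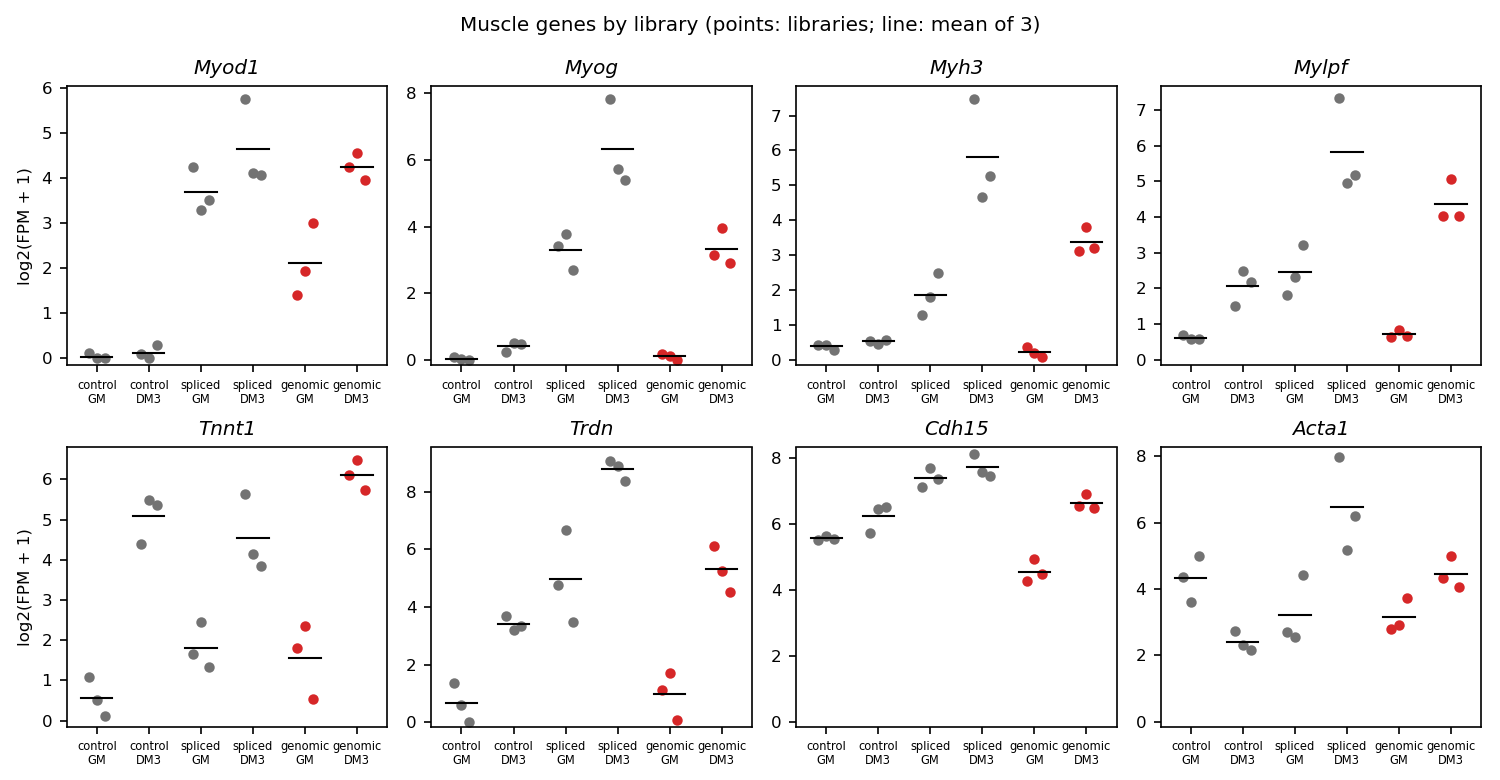
FPM of muscle genes in each library as log2(FPM + 1) on the vertical axis, for Myod1, Myog, Myh3, Mylpf, Tnnt1, Trdn, Cdh15 and Acta1, by line and medium, with a point for each library and a line at the mean of 3. Myog and Myh3 of MUNC genomic cells lie near 0 in GM and between 6.50 and 14.7 FPM in DM3.

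Calcium handling and the neuromuscular synapse gave 12 higher and 0 lower among 21 tested genes of 24, 57.1% of them, with a median of 0.92. After Trdn the largest change was that of Chrng, the fetal gamma subunit of the acetylcholine receptor, from 0.286, 0.287 and 0.0420 FPM in GM to 9.66, 12 and 8.92 FPM in DM3 (log2 change 3.21, SE 0.43, adjusted p 1.71e-05). Chrnd, the delta subunit, rose by 3.03 (from 3.69 ± 2.02 to 35.8 ± 8.42 FPM). Lrp4, the agrin receptor, rose by 2.87, its partner kinase Musk by 1.53 and the receptor-clustering protein Rapsn by 1.45. The calcium pump Atp2a1 rose by 2.73 and the release channel Ryr1 by 2.46. In control cells 13 members of this list rose and 1 fell (median 0.86). In MUNC spliced cells 17 rose and 0 fell (median 1.21). Over all genes 29.6% rose and 28.6% fell in control and 17.2% and 18.4% in MUNC spliced cells. The difference of response from control was called higher for 2 members and lower for 1 (3.56% and 5.25% of all genes). Ryr1 changed by -0.01 in control cells (adjusted p 0.993). The calcium store proteins Casq1 and Casq2 did not pass the test, at 0.39 and -0.14. Chrng is one of the genes with a smaller response than in control cells (5.24 there), but that difference was lost in 18 alternatives.

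Fusion genes moved in both directions, 10 higher and 4 lower among 22 tested of 27 (45.5% and 18.2%, median 0.34). Tmem8c, the fusogen Myomaker, had 0 reads in GM and 35, 144 and 72 reads in DM3, at least 27.2-fold higher, and its call was lost without DM3 replicate 2 (log2 change 1.01). Gm7325, the gene of its partner Myomixer, had 0, 1 and 0 reads in GM and 90, 212 and 53 in DM3 (log2 change 1.51, SE 0.28, adjusted p 3.24e-04). Both fusogens were thus detected in all DM3 libraries at low levels. Itga7, the laminin-binding integrin of muscle, went from 136 ± 34.1 to 528 ± 61.6 FPM (log2 change 1.97). Adam12, a membrane protease of regenerating muscle, fell by 1.94, the endocytic protein Ehd1 by 0.69, Jam2 by 0.39 and Dock1 by 0.29. Only 2 members fell under quantile normalization or without GM replicate 2.

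The cell cycle lists fell almost whole. Of 40 genes of DNA replication and G1/S, 39 fell and 0 rose (97.5%, beside 25.1% of all genes), with a median of -2.66. The exception was E2f2, a transcription factor of G1/S (-0.42, SE 0.32, adjusted p 0.298). Of 40 genes of mitosis and G2/M all 40 fell, with a median of -3.06. The medians were -2.96 and -2.90 in control cells and -1.52 and -2.31 in MUNC spliced cells. Mki67, the proliferation marker Ki-67, went from 591, 604 and 559 FPM in GM to 61.9, 53.4 and 81.8 FPM in DM3 (log2 change -3.16, SE 0.39, adjusted p 8.21e-06). Its mean was 8.90-fold lower in DM3 and was still present in every DM3 library. The sliding clamp Pcna fell by 2.27, separase (Espl1) by 3.58, survivin (Birc5) by 3.53 and the anaphase activator Cdc20 by 3.53. The mitotic cyclin Ccnb1 fell by 3.22, its kinase Cdk1 by 2.95 and the G1 cyclin Ccnd1 by 2.41.

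Promoters of both lists are shown because their members moved together. The cell cycle homology region (CHR), TTTGAA, is bound by the complex that represses mitotic genes in resting cells, and TTCCCGC is an E2F site. Both were searched on both strands in the 250 bases before the RefSeq start in GRCm38.p6, with matches in capitals, Mki67 from chr7:135716380-135716629 on the minus strand and E2f7 from chr10:110745189-110745438 on the plus strand.
Mki67: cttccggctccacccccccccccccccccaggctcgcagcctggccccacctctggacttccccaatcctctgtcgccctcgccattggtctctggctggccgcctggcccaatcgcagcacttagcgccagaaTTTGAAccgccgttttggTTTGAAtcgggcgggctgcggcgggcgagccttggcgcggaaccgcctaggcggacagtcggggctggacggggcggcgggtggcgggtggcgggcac
E2f7: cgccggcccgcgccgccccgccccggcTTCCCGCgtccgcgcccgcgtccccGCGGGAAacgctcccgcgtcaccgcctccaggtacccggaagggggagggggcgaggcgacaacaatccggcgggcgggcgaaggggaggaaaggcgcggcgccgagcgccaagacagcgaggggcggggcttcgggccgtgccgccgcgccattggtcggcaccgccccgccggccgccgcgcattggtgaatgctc
The CHR was found in 10 of 33 matched promoters of the mitosis list (30.3%), in 15.6% of those of the replication list, in 10.4% of the promoters of tested genes and in 16.3% of all promoters. The E2F site was found in 10 of 32 promoters of the replication list (31.2%), in 0 of 33 of the mitosis list, in 6.97% of tested genes and in 3.86% of all promoters. CCAAT, the box bound by NF-Y, was found in 25 of 33 mitosis promoters (75.8%) and 21 of 32 replication promoters (65.6%), against 36.9% of tested genes. The Mki67 window held its matches at 116 and 98 bases before the start, and the E2f7 window at 223 and 198. The E2F site matches of E2f7 lie on opposite strands. No test was made on these shares.

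Among 16 tested CDK inhibitors and quiescence genes of 20, 7 rose and 3 fell (43.8% and 18.8%, beside 26.3% and 25.1% of all genes). Btg2, an antiproliferative p53 target, went from 27.0, 52.8 and 8.07 FPM in GM to 339, 133 and 236 FPM in DM3 (log2 change 3.21, SE 0.52, adjusted p 1.04e-04), and every DM3 library was above every GM library. Ccng2, a cyclin of resting cells, rose by 1.79, Gas1 by 1.62 and the CDK inhibitor Cdkn1a by 1.13. Rbl1, the pocket protein p107, fell by 1.89, and the inhibitors Cdkn2c and Cdkn2d by 1.48 and 1.09. Of 28 p53 targets 7 rose and 7 fell (25% each, about the share of all genes), among them Gadd45a (up by 2.29) and Sesn1 (up by 1.66), with Ckap2, a spindle protein, at -2.62. Of 35 immediate early and serum response genes 11 rose and 8 fell (31.4% and 22.9%), also near the shares of all genes. Fos went from 78.4, 30.8 and 5.31 FPM in GM to 392, 297 and 297 FPM in DM3 (log2 change 3.70, SE 1.03, adjusted p 0.00690), and the phosphatase Dusp1 rose by 2.35. Fosb rose by 2.67, a call lost under 8 alternatives. Fosl1 fell by 2.20 and Myc by 1.15.

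Genes of growth and biosynthesis fell. All 30 ribosome biogenesis genes fell, with a median of -1.25 (-1.61 in control, -0.52 in MUNC spliced cells). Dkc1, the pseudouridine synthase dyskerin, went from 204, 137 and 252 FPM in GM to 49.0, 46.2 and 39.7 FPM in DM3, a log2 change of -2.07. Nop56, Nolc1 and Rrp12 fell by 1.97, 1.81 and 1.65, and the abundant nucleolar proteins Ncl and Npm1 by 1.45 and 1.17. Of 34 genes of cholesterol and fatty acid synthesis 24 fell and 1 rose (70.6% and 2.94%, beside 25.1% and 26.3% of all genes), with a median of -0.97. In control cells 5 members of this list fell (median -0.17) and in MUNC spliced cells 4 (median -0.38), where 28.6% and 18.4% of all genes fell. The difference of response, however, passed the test for 0 members against control (8.81% of all genes) and for 4 against MUNC spliced (10.5%). The desaturases Fads2 and Scd2 fell by 1.70 and 1.40, the fatty acid elongase Elovl6 by 1.28 and the isoprenoid enzyme Fdps by 1.36.

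Most changes in energy metabolism were small. Of 31 mitochondrial genes 18 fell and 1 rose (58.1% and 3.23%, beside 25.1% and 26.3% of all genes), with a median of -0.32. Cytochrome c (Cycs) fell by 1.70, and the Krebs cycle enzymes Idh3a and Mdh2 by 1.22 and 0.86. The one that rose was the uncoupling family member Ucp2, from 9.10, 21.6 and 3.80 FPM in GM to 50.4, 72.1 and 46.9 FPM in DM3 (log2 change 2.45). Of 28 glycolysis and hypoxia genes 12 rose and 7 fell (42.9% and 25%). Only 7 rose without GM replicate 1 or without DM3 replicate 1, and 3 fell without DM3 replicate 2. Pdk1, which turns pyruvate away from mitochondria, rose by 2.13, the carbonic anhydrase Car9 by 2.03, the mitophagy receptor Bnip3 by 1.80 and the prolyl hydroxylase P4ha1 by 0.97.

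Lysosome, autophagy and atrophy genes rose, 22 of 30 (73.3%, beside 26.3% of all genes) with 1 lower (Fbxo30), at a median of 0.88. Map1lc3a, which coats autophagosomes, went from 34.4, 85.4 and 17.2 FPM in GM to 416, 362 and 347 FPM in DM3 (log2 change 3.30, SE 0.48, adjusted p 3.78e-05). Fbxo32, the muscle ubiquitin ligase atrogin-1, went from 22.6, 39.0 and 22.3 FPM in GM to 249, 307 and 215 FPM in DM3 (log2 change 3.19, SE 0.32, adjusted p 1.79e-06). Both genes had no overlap between media. The membrane glycoprotein Gpnmb rose by 2.17, the cathepsin Ctsl by 1.53 and the lysosomal membrane protein Lamp2 by 1.39. Of 26 genes of the integrated stress response, 11 fell and 2 rose in MUNC genomic cells, 14 fell and 4 rose in control cells, and 0 fell and 9 rose in MUNC spliced cells. Over all genes 25.1% fell and 26.3% rose in MUNC genomic cells, 28.6% and 29.6% in control and 18.4% and 17.2% in MUNC spliced cells. The difference of response to MUNC spliced cells was called lower for 14 of the 26 (5.36% of all genes). Starting levels differed between these 2 lines. Summed over the list, MUNC spliced libraries held 3366 to 3436 FPM in GM and 3648 to 5756 in DM3. Control libraries held 5494 to 7014 and 3418 to 3690, and MUNC genomic libraries 5806 to 7138 and 3714 to 4302. Psat1, an enzyme of serine synthesis, went from 862, 842 and 1082 FPM in GM to 258, 232 and 259.7 FPM in DM3 (log2 change -1.88, SE 0.16, adjusted p 5.71e-07). In the same gene the change was -1.98 in control and 0.04 in MUNC spliced cells. The mitochondrial folate enzyme Shmt2 fell by 1.84, the cystine carrier Slc7a11 by 1.68 and the serine phosphatase Psph by 1.64. The call of Ddit3, at 0.76, was lost under 7 alternatives.

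Of 47 tested collagen and matrix genes of 51, 16 rose and 9 fell (34% and 19.1%, near the 26.3% and 25.1% of all genes), with a median of 0.26, and 10 rose without GM replicate 3. Apart from Dcn, the basement membrane linker Nid2 rose by 3.14 (from 25.5 ± 12.7 to 213 ± 19.3 FPM) and the keratan sulfate proteoglycan Lum by 3.05. Fn1 went from 4005, 8636 and 4547 FPM in GM to 17267, 20992 and 38446 FPM in DM3 (log2 change 2.16, SE 0.50, adjusted p 0.00190). The Fn1 libraries of DM3 all lay above those of GM, but under quantile normalization the change was 0.96 and not called. Col18a1 rose by 2.29 and Ogn by 2.62, while Col1a1 and Col1a2, the chains of type I collagen, did not pass the test at 0.16 and -0.27. Smoc2, a calcium-binding matrix protein, went from 98.2, 48.0 and 98.2 FPM in GM to 8.45, 7.28 and 6.89 FPM in DM3 (log2 change -3.20, SE 0.31, adjusted p 1.33e-06). Fbln1, fibulin 1, fell by 2.40 and Tnc, tenascin C, by 1.91.

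Of 31 tested matrix enzymes and inhibitors of 37, 18 rose and 3 fell (58.1% and 9.68%). The proteases Adamts1, Adamts5 and Adamts2 rose by 2.20, 2.17 and 1.93 after Adamts4, which led the list. Loxl2, a lysyl oxidase that cross-links collagen, went from 249, 381 and 127 FPM in GM to 791, 767 and 826 FPM in DM3 (log2 change 1.79, SE 0.33, adjusted p 3.31e-04). The same gene changed by -0.86 in control and -1.34 in MUNC spliced cells, both called. Among the 3 that fell were the metalloproteinase inhibitors Timp1 (-0.99) and Timp3 (-0.90).

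Insulin-like growth factor (IGF) genes included abundant transcripts with large changes. Of 17 tested, 8 rose and 2 fell (47.1% and 11.8%). Igfbp5, a secreted IGF-binding protein, went from 294, 408 and 80.0 FPM in GM to 2634, 2852 and 2763 FPM in DM3 (log2 change 3.68, SE 0.65, adjusted p 2.06e-04). H19, the imprinted noncoding RNA beside Igf2, went from 218, 398 and 85.4 FPM in GM to 1680.3, 2152 and 1356 FPM in DM3 (log2 change 3.11, SE 0.55, adjusted p 2.22e-04). GM replicate 3 was the lowest GM library for both. Igf2 itself rose by 2.41 (from 0.0854 ± 0.0584 to 6.01 ± 5.62 FPM) and the scavenging receptor Igf2r by 2.10. Igf1 and the receptor Igf1r did not pass the test, at 0.28 and 0.19. Igfbp2 fell by 1.86 and the IGFBP protease Pappa by 1.14.

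In the Notch and the TGF-beta and BMP lists the shares of called genes lay near those of all genes (26.3% higher and 25.1% lower), and single members had large changes. Of 18 Notch genes 6 rose and 3 fell (33.3% and 16.7%). The ligand Dll1 went from 0.415, 0.996 and 0.336 FPM in GM to 18.1, 23.5 and 17 FPM in DM3 (log2 change 3.71, SE 0.26, adjusted p 1.07e-07). The Dll1 libraries of GM were all under 1 FPM and those of DM3 all above 16. The glycosyltransferase Lfng fell by 1.98, the receptor Notch1 by 0.98 and the effector Hey1 by 0.81, while Hes6 rose by 1.11. Heyl, at 1.52, lost its call under 5 alternatives. Of 32 TGF-beta and BMP genes 11 rose and 7 fell (34.4% and 21.9%). The BMP antagonist Grem1 went from 90.8, 61.2 and 181 FPM in GM to 16.2, 26.3 and 20.4 FPM in DM3 (log2 change -2.23, SE 0.38, adjusted p 1.51e-04), with GM replicate 3 the highest library. The effector Smad3 rose by 2.07, the receptor Tgfbr2 by 1.67 and the BMP antagonist Nbl1 by 1.39, while the inhibitory Smad7 and Smad6 fell by 1.03 and 0.70. Of 29 Wnt genes 5 rose and 4 fell (17.2% and 13.8%). The ligand Wnt9a rose by 1.96 and the receptor Fzd5 by 0.95, and the R-spondin receptor Lgr4 and the transcription factor Lef1 fell by 0.95 and 0.92.

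Axon guidance genes, which also steer other cells, gave 17 higher and 11 lower among 44 tested (38.6% and 25%, beside 26.3% and 25.1% of all genes). The secreted semaphorins Sema3c and Sema3d rose by 3.98 and 3.03. Nrp1, a co-receptor of class 3 semaphorins, went from 82.0, 87.9 and 56.9 FPM in GM to 348, 397 and 416 FPM in DM3 (log2 change 2.36, SE 0.17, adjusted p 1.11e-07). Efnb2, a membrane-bound ephrin, went from 98.8, 153 and 103 FPM in GM to 620.2, 584 and 597 FPM in DM3 (log2 change 2.36, SE 0.16, adjusted p 6.83e-08). Both genes had narrow ranges in DM3, well above GM. Sema7a and the plexin Plxna4 fell by 2.20 and 2.16. Of 23 Hox genes 13 rose and 0 fell (56.5% higher), with a median of 0.42, and 8 rose with a filter at 5 FPM. Hoxa3, Hoxa2, Hoxa5 and Hoxa10, all of the HoxA cluster, rose by 1.5, 1.19, 1.13 and 1.03, and the strand setting of the authors' counting is not given, so reads of overlapping or antisense transcripts there cannot be told apart. Of 16 histone genes 6 rose and 3 fell (37.5% and 18.8%). Hist1h1c, a linker histone whose mRNA can be polyadenylated, rose by 1.78. Hist2h3c2 and Hist1h2bg rose by 1.36 and 0.97, and Hist1h2ae fell by 0.95. Of 26 chemokines and cytokines 9 rose and 6 fell (34.6% and 23.1%, near the shares of all genes). The monocyte attractants Ccl7 and Ccl2 were at -2.19 and -1.71 and the chemokines Cxcl1 and Cxcl12 at 2.12 and 1.88. Against control the difference of response was called lower for 9 of the 26 and higher for 2 (5.25% and 3.56% of all genes). Against MUNC spliced cells it was called lower for 10 and higher for 0 (5.36% and 5.17% of all genes).

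Of the 32 gene lists, the interferon-stimulated one had the widest gap between the median response of MUNC genomic cells and that of either other line. Of 52 tested genes of 53, 23 rose and 0 fell (44.2%), with a median log2 change of 0.78. In control cells the median was 4.02 and in MUNC spliced cells 4.37. This list was drawn up after interferon genes had stood out in earlier results of these data, so its direction is not independent evidence. The count depended on the fit, with 37 members higher when limma used only the compared groups and 35 by DESeq2 on recovered reads. Summed over the list, MUNC genomic libraries held 628 to 874 FPM in GM and 1361 to 1409 in DM3. Control libraries held 896 to 2469 FPM in GM and 14842 to 22359 in DM3, and MUNC spliced libraries 638 to 1143 and 9033 to 14535. The difference of response was called lower for 44 members against control and for 49 against MUNC spliced (over all genes, 5.25% and 5.36% were called lower). It was called higher for 1 member in each, Ifi27. The filter counted all 18 libraries, so members absent from MUNC genomic cells, such as Mx1, were tested only because of the other lines. Their changes near 0 enter the MUNC genomic median, and for them the difference of response is mainly the rise of the other line.

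Within MUNC genomic cells the list was uneven. Zbp1, a sensor of Z-form nucleic acid, went from 0.186, 0.709 and 0.273 FPM in GM to 11.2, 9.87 and 10.7 FPM in DM3 (log2 change 3.08, SE 0.58, adjusted p 3.44e-04). Gbp2, a guanylate-binding protein, went from 0.802, 1.20 and 1.53 FPM in GM to 12, 14.6 and 10.8 FPM in DM3 (log2 change 2.63, SE 0.48, adjusted p 2.72e-04). The GTPase Irgm2 and the apoptosis factor Xaf1 rose by 2.56 and 2.26. Isg15, a ubiquitin-like modifier, went from 1.76, 2.43 and 0.756 FPM in GM to 7.10, 6.01 and 8.04 FPM in DM3 (log2 change 1.65, SE 0.43, adjusted p 0.00427). Zbp1, Gbp2 and Isg15 were higher in every DM3 library than in every GM library. Ifi27 went from 43.4, 48.2 and 28.2 FPM in GM to 104, 96.8 and 104 FPM in DM3 (log2 change 1.36, SE 0.22, adjusted p 1.10e-04), against -0.64 in control and 0.21 in MUNC spliced cells. The antigen presentation gene B2m rose by 1.01 and the interferon regulatory factor gene Irf9 by 0.92.

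Other members were not detectable or nearly so. Mx1, Ifi44l and Oas1g had 0 reads in all 6 MUNC genomic libraries, whereas control DM3 had 1967, 1005 and 907 reads of Mx1. A count of 0 allows at most 3 reads, between 0.0429 and 0.0757 FPM over the 18 libraries. Oas3, an oligoadenylate synthetase that activates RNase L, had 1, 1 and 1 reads in MUNC genomic GM and 0, 2 and 2 in DM3. In control DM3 it had 13634, 13982 and 13892 reads. Oas genes share long stretches of sequence, so reads may have been divided among them. Oas2 had 1, 0 and 2 reads in GM and 5, 28 and 27 in DM3.

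The promoters of a gene with a modest rise and of a gene near 0 are shown together. Both hold the interferon-stimulated response element (ISRE), searched as GAAA, any 2 bases and GAAA, which was found in 3.05% of all promoters and in 2.57% of those of tested genes on either strand. The windows are the 250 bases before the RefSeq start on the minus strand of GRCm38.p6, Isg15 from chr4:156200819-156201068 and Oas3 from chr5:120777660-120777909, with matches in capitals, overlapping ones as 1 run.
Isg15: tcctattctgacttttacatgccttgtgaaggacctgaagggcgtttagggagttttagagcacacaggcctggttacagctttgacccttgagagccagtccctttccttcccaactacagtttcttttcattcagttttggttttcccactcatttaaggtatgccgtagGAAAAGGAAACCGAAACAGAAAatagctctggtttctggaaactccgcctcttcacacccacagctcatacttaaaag
Oas3: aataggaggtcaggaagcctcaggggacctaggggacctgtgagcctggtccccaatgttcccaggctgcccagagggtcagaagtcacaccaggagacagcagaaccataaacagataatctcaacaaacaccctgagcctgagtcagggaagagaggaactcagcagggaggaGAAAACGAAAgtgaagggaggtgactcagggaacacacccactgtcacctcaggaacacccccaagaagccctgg
The run begins 78 bases before the start in Isg15 and 75 bases before it in Oas3. The presence of these letters does not show binding in either gene.

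**Figure D3:**
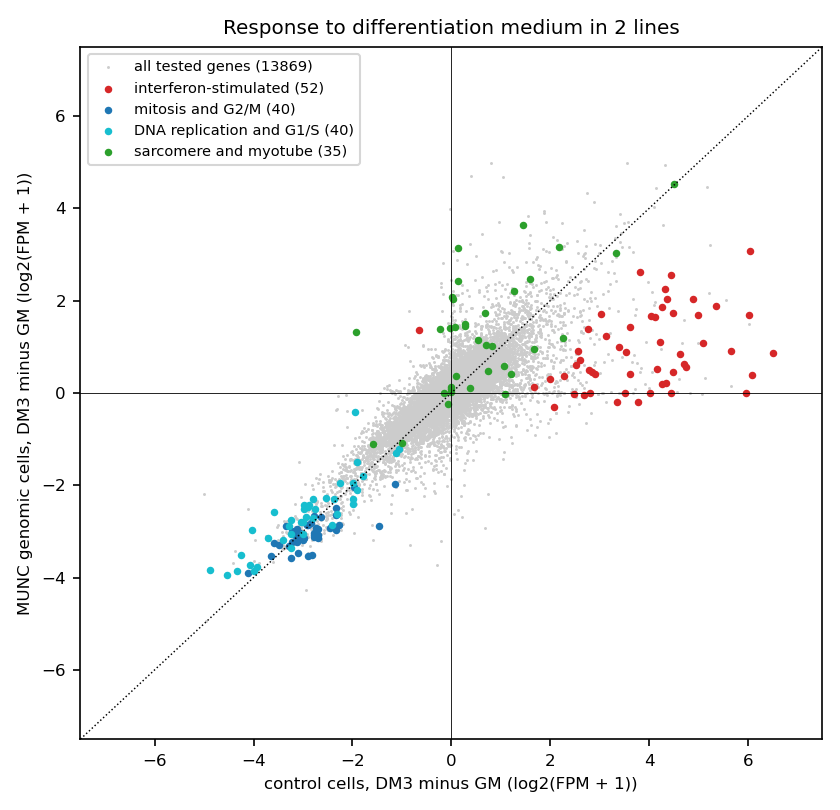
Log2 response of each tested gene in MUNC genomic cells on the vertical axis against its response in control cells on the horizontal axis, with interferon-stimulated genes in red, the cell cycle lists in blue, the sarcomere list in green and a dotted line at equal response. The red points lie to the right of that line, except Ifi27, at a median of 0.78 in MUNC genomic and 4.02 in control cells.

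**Figure D4:**
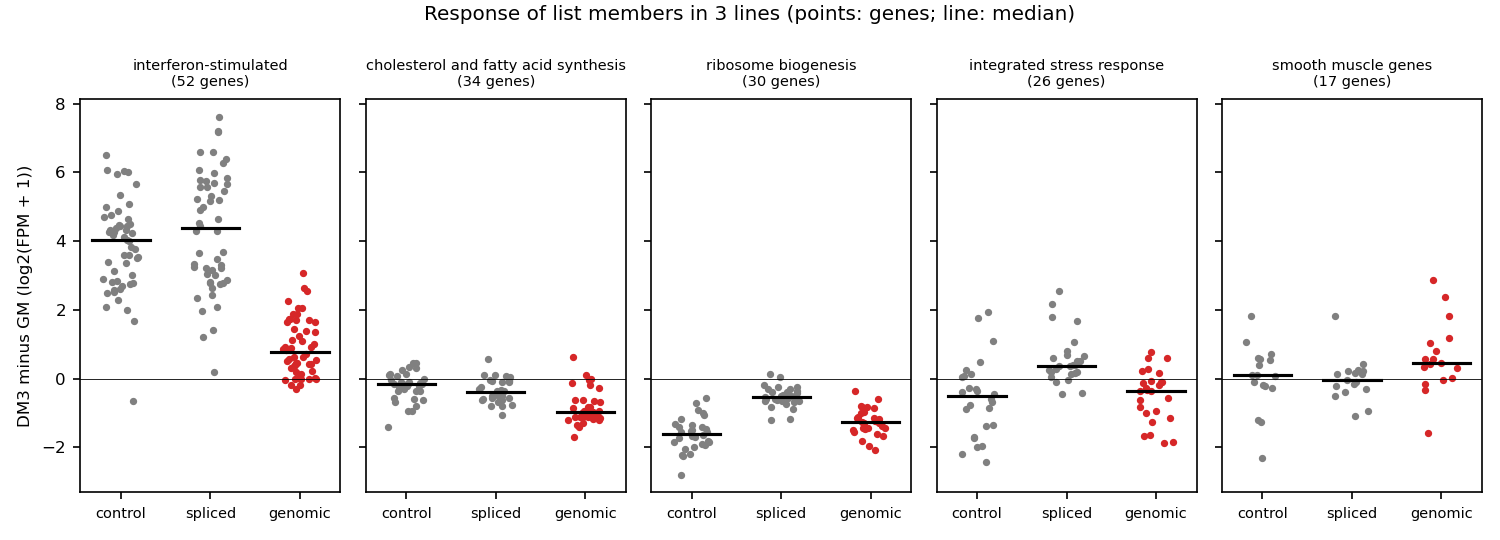
Responses of the members of the interferon, cholesterol, ribosome biogenesis, stress response and smooth muscle lists in the 3 lines, as DM3 minus GM on the log2(FPM + 1) scale on the vertical axis, with a point for each gene and a line at the median. The interferon-stimulated medians are 0.78 in MUNC genomic, 4.02 in control and 4.37 in MUNC spliced cells, and the ribosome biogenesis medians lie below 0 in all 3 lines.

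Separate lists of calls do not test whether the lines differ, so the difference of response was tested for each gene. Against control it was called for 1222 genes (8.81%), 494 higher (3.56%) and 728 lower (5.25%) in MUNC genomic cells. Against MUNC spliced it was called for 1460 genes (10.5%), 717 higher (5.17%) and 743 lower (5.36%). Both differences use the same MUNC genomic libraries. Without control DM3 replicate 2 the first count was 784. Without MUNC genomic DM3 replicate 3 the second was 930, and without MUNC genomic GM replicate 1 it was 953. Of the 494 genes, 220 rose in MUNC genomic cells and were not called in control, and 58 rose in both lines. Of the 728 genes, 380 rose in control and were not called in MUNC genomic cells. Of the 717 genes, 483 rose in MUNC genomic cells and were not called in MUNC spliced cells.

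The 5 highest differences against control were those of Fam107a (4.30, SE 0.32, adjusted p 6.21e-07), Clu (4.17, SE 0.47, adjusted p 3.44e-05), Sema3c (4.01, SE 0.63, adjusted p 6.68e-04), Osr2 (3.64, SE 0.21, adjusted p 6.01e-08) and Acta1 (3.25, SE 0.83, adjusted p 0.0218). Control GM and DM3 averaged 0.188 ± 0.139 and 1.08 ± 0.162 FPM of Clu. Sema3c was near 0 in control cells, at 0.518 ± 0.429 FPM in GM and 0.463 ± 0.243 in DM3, and Acta1 fell there by 1.93. The call of Acta1 was lost under 6 alternatives and that of Fam107a with edgeR. The 5 lowest were interferon-induced genes, Oas3 (-5.95, SE 0.63, adjusted p 2.19e-05), Oas2 (-5.69, SE 0.72, adjusted p 1.00e-04), Ifi44 (-5.65, SE 0.94, adjusted p 0.00111), Gbp9 (-5.50, SE 0.40, adjusted p 5.48e-07) and Gm4951 (-5.10, SE 0.57, adjusted p 3.55e-05). With edgeR on recovered reads none of these 5 was called, with log2 differences of -5.23, -1.57, -3.78, -5.04 and -8.47, and DESeq2 did not call Oas2 (-1.5).

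Against MUNC spliced cells the 5 highest were Osr2 (4.76, SE 0.21, adjusted p 1.79e-09), Clu (4.11, SE 0.47, adjusted p 3.72e-05), Myh14 (3.91, SE 0.67, adjusted p 0.00137), Fam107a (3.71, SE 0.32, adjusted p 2.48e-06) and Sprr1a (3.71, SE 0.49, adjusted p 1.69e-04). Myh14, a nonmuscle myosin heavy chain, went from 0.200, 1.62 and 0.0420 FPM in GM to 17.6, 22.8 and 23.5 FPM in DM3 in MUNC genomic cells. It changed by -0.02 in MUNC spliced cells, and its difference was not called with edgeR (5.37). The small proline-rich protein Sprr1a rose by 3.37 in MUNC genomic cells and changed by -0.34 in MUNC spliced cells. The 5 lowest were Oas2 (-7.23, SE 0.72, adjusted p 1.04e-05), Ifi44 (-6.34, SE 0.94, adjusted p 4.25e-04), Iigp1 (-6.27, SE 1.10, adjusted p 0.00169), Oas1a (-5.68, SE 0.46, adjusted p 1.23e-06) and Gm4951 (-5.35, SE 0.57, adjusted p 2.25e-05). Of these, Oas2 and Iigp1 were called by neither edgeR nor DESeq2, and Gm4951 not by edgeR.

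For Myog and Myh3 the response differed from that of control cells, and no difference from MUNC spliced cells was called. The response of Myog exceeded that of control by 2.85 (SE 0.64, adjusted p 0.00955) and that of MUNC spliced by 0.21 (SE 0.64, adjusted p 0.884). Control DM3 libraries held 10, 22 and 22 reads of Myog, MUNC genomic DM3 399, 977 and 333, and MUNC spliced DM3 11897, 3017 and 2265. The MUNC spliced GM libraries already held 385, 688 and 304 reads. With edgeR and DESeq2 the Myog difference from control, 3.23 in both, was not called. Myh3 exceeded control by 3.01 (adjusted p 0.0105) and differed from MUNC spliced by -0.79 (adjusted p 0.512). Myod1 exceeded control by 2.04 (adjusted p 0.0358), a call lost under 14 alternatives (differences of 0.43 to 2.12), and MUNC spliced by 1.17 (adjusted p 0.219). Of the 35 tested sarcomere genes, the difference from control was called higher for 7 and lower for 1 (3.56% and 5.25% of all genes). The difference from MUNC spliced was called higher for 1 and lower for 2 (5.17% and 5.36% of all genes).

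Some genes responded more, or in the other direction, than in both other lines. The Notch ligand Dll1 exceeded control by 2.75 and MUNC spliced by 1.83 (adjusted p 1.91e-04 and 0.00492), although edgeR called neither and DESeq2 did not call the first. Efnb2 exceeded them by 1.47 and 2.51, Nrp1 by 1.24 and 1.92, Cdh15 by 1.43 and 1.78, and Loxl2 by 2.64 and 3.12. The calls of these 4 genes held in every alternative run. Lmod1, a smooth muscle actin nucleator, exceeded control by 2.77 and MUNC spliced by 2.66. The response of Grem1 differed from theirs by -2.42 and -2.85. That of Igfbp2 differed by -1.85 and -1.97, with the first difference lost under edgeR and DESeq2. Igfbp2 was at 62.3, 82.0 and 58.0 FPM in MUNC genomic GM. It was near 0 in control GM (0.0512, 0 and 0 FPM) and MUNC spliced GM (0.0757, 0.0733 and 0.126 FPM). Its differences are therefore mainly its fall in MUNC genomic cells. Grem1 changed by 0.19 in control and 0.62 in MUNC spliced cells, neither called. The starting levels differed, since Grem1 in GM averaged 591 ± 101 FPM in control and 24.9 ± 8.05 in MUNC spliced cells against 111 ± 62.1 in MUNC genomic cells. Sox11 lay -3.45 from control and -1.73 from MUNC spliced cells, the latter lost under 9 alternatives and the former with edgeR and DESeq2 (-1.56 and -1.5). Control cells held almost no Sox11, 0.267 ± 0.176 FPM in GM.

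**Figure D5:**
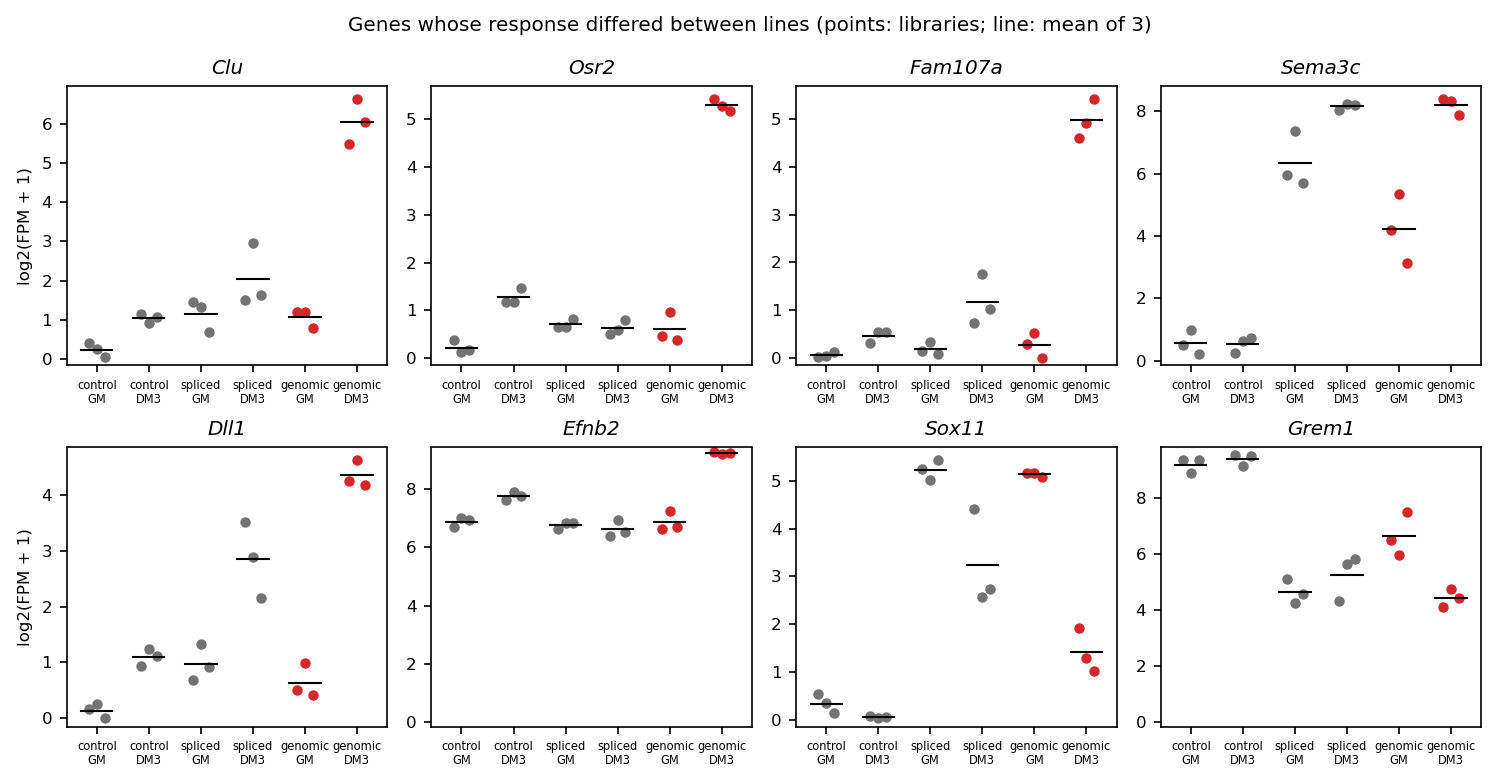
Level in each library, as log2(FPM + 1) on the vertical axis, of 8 genes whose response differed between lines (Clu, Osr2, Fam107a, Sema3c, Dll1, Efnb2, Sox11 and Grem1), by line and medium, with a line at the mean of 3. For Clu, Osr2, Fam107a, Dll1 and Efnb2 the 3 MUNC genomic DM3 libraries lie above every other library, with Osr2 at 42.2, 37.6 and 35.1 FPM.

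Markers of other cell types were measured as well. Of 17 smooth muscle genes, which myoblasts also express in part, 9 rose and 1 fell (52.9% and 5.88%, beside 26.3% and 25.1% of all genes). They were led by Lmod1 (2.88), the myosin kinase Mylk (2.39) and the light chain Myl9 (1.81), with calponin (Cnn1) at -1.58. The difference of response was called higher for 6 of the 17 against MUNC spliced cells and for 2 against control (5.17% and 3.56% of all genes). In control cells 6 of the 17 rose and 3 fell (29.6% and 28.6% of all genes). In MUNC spliced cells 1 rose and 2 fell (17.2% and 18.4% of all genes). Acta2 and Tagln, defining smooth muscle genes, did not pass the test in MUNC genomic cells, at 0.44 and -0.34. Of 8 tested adipocyte markers of 16, 2 rose and 3 fell (25% and 37.5%), with Pparg, Lpl and Dgat2 falling by 1.03, 1.22 and 1.15 and Cebpa rising by 1.14. Of 8 tested osteoblast and chondrocyte markers of 20, Sox9 rose by 1.02 and 4 fell (12.5% and 50%), among them Matn3 (-0.80) and Runx2 (-0.70). Of 15 tested neuronal genes of 27, 3 rose and 5 fell (20% and 33.3%, near the shares of all genes). The neurofilament genes Nefl and Nefm were at -2.51 and -2.19 and the adhesion gene L1cam at -1.84. Fam107a was the highest, and Syt1 and Ncam1 rose by 1.32 and 0.44. Only 4 of 12 endothelial markers were tested, Cdh5 (-0.65, SE 0.12, adjusted p 2.72e-04), Flt1 (-0.27, SE 0.13, adjusted p 0.102), Egfl7 (-0.26, SE 0.13, adjusted p 0.0990) and Tek (0.08, SE 0.13, adjusted p 0.636). Likewise 4 of 14 macrophage markers were tested, Cd68 (-0.70, SE 0.23, adjusted p 0.0187), Lyz2 (0.41, SE 0.25, adjusted p 0.181), Aif1 (0.10, SE 0.13, adjusted p 0.521) and Cd14 (-0.06, SE 0.13, adjusted p 0.743). The calls of Cdh5 and Cd68 were lost under 3 and 5 alternatives. The part of other cell types in the responses above was not tested.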

How the data were processed

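Poly(A)-selected RNA was sequenced on an Illumina instrument, per the labels' protocols, and STAR, HTSeq, DESeq2 and mm10 are named without versions in the submitters' processing notes. The deposited values are a signal in FPM, 1 table of 35275 genes by 18 libraries. A label calls it FPKM, but a library's values were whole multiples of a single step, so no gene length had been divided out. Division by the step gave whole reads, within 0.1 of a read, for 100% of values (largest deviation 0.0354). Recovered depth was 38416702 to 68788327 reads, and a floor of 3 reads covers counting error only.

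Responses were fitted in R 4.3.3 with limma 3.58.1 (lmFit, contrasts.fit, eBayes with trend) on log2(FPM + 1) in 1 fit of all 18 libraries with a mean for each of 6 groups (12 residual degrees of freedom), adjusted by Benjamini-Hochberg over 13869 genes. The same fit gave the response of the other lines and the differences of response. The genes named are Myod1, Myog and Myh3, the 12 that rose and the 12 that fell most among called genes with no overlap between media and at least 5 FPM in the higher medium, the 4 largest absolute changes of each of 32 lists and the 5 highest and 5 lowest called differences with a group mean of at least 5 FPM. Further genes were named after their values had been seen, and some genes that the rule names are not reported here. The members and lists were chosen with earlier results of these data known. Alternatives were pseudocounts of 0.5 and 0.1, no filter and a filter at 5 FPM, equal sums, TMM and quantile scaling, only the compared groups, a replicate block, an added fold threshold, edgeR 4.0.16 and DESeq2 1.42.0 on recovered reads, and each library left out. The script was tested on simulated data. Positions are mm10 from GENCODE, and promoter sequences are from RefSeq (GRCm38.p6), which matched 9800 of the tested genes.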

Additional observations from a re-analysis of the deposited data

Results flagged for a closer look

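The response of a gene in MUNC genomic cells differed from its response in control cells, by the limma test of the difference itself, for 1222 genes, and from its response in MUNC spliced cells for 1460 genes. Values below are log2 differences of response, MUNC genomic minus the other line.

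Against control the positive differences were those of Fam107a (4.30), Clu (4.17), Sema3c (4.01), Osr2 (3.64), Acta1 (3.25), Myh3 (3.01), Myog (2.85), Lmod1 (2.77), Dll1 (2.75), Loxl2 (2.64), Myod1 (2.04), Ifi27 (2.00), E2f2 (1.54), Efnb2 (1.47), Cdh15 (1.43) and Nrp1 (1.24). Of these, Acta1 and E2f2 did not pass the test within MUNC genomic cells, so their differences do not show a larger response there. The call of E2f2 was lost under 16 alternatives. Those in the negative direction were Oas3 (-5.95), Oas2 (-5.69), Ifi44 (-5.65), Gbp9 (-5.50), Gm4951 (-5.10), Sox11 (-3.45), Zbp1 (-2.97), Grem1 (-2.42) and Igfbp2 (-1.85). The call of Zbp1 was lost under 15 alternatives.

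Against MUNC spliced cells the positive differences were those of Osr2 (4.76), Clu (4.11), Myh14 (3.91), Fam107a (3.71), Sprr1a (3.71), Loxl2 (3.12), Lmod1 (2.66), Efnb2 (2.51), Nrp1 (1.92), Dll1 (1.83), Cdh15 (1.78) and Ifi27 (1.15). The call of Ifi27 was lost under 10 alternatives. Those in the negative direction were Oas2 (-7.23), Ifi44 (-6.34), Iigp1 (-6.27), Oas1a (-5.68), Gm4951 (-5.35), Zbp1 (-3.00), Grem1 (-2.85), Igfbp2 (-1.97), Psat1 (-1.92), Sox11 (-1.73) and Shmt2 (-1.40). The call of Zbp1 was lost under 10 alternatives. Groups held 3 libraries each, too few for a check of single outlying libraries.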

How the results depend on the processing

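When calls also had to reach a change of 1 on the log2 scale, 1003 genes rose and 1049 fell in MUNC genomic cells, 2592 were called in control and 1253 in MUNC spliced cells, and the differences of response numbered 601 against control and 686 against MUNC spliced cells. A fit with only the compared groups called 3046 genes in MUNC spliced cells, and edgeR called 777 differences from control. A replicate block called 2265 differences from control, 2716 from MUNC spliced cells and, within MUNC genomic cells, 4259 genes higher and 4085 lower. Same-numbered MUNC genomic libraries had deviations correlated at 0.358, 0.0531 and 0.228 between the media, and each of the 6 libraries correlated best with its own number. In GM, same-numbered libraries of different lines correlated more, at 0.494, 0.629 and 0.726 for control with MUNC genomic cells. For MUNC spliced with MUNC genomic cells the values were 0.456, 0.699 and 0.727. The main fit leaves this shared variation out, and the block is given as an alternative only. With the block 10 Notch genes rose in place of 6. Leaving out 1 library at a time gave 2997 to 3564 genes higher and 2937 to 3409 lower in MUNC genomic cells, 7087 to 7879 genes in control and 3297 (without MUNC spliced GM replicate 3) to 5378 in MUNC spliced cells. The differences then numbered 784 to 1345 against control and 930 to 1597 against MUNC spliced cells. Some differences of single genes turned in direction with count models, namely Smoc2 against control (0.91 with edgeR, 1.20 with DESeq2), Flt1 against control (-4.25 and -3.70) and against MUNC spliced cells (-2.95 and -2.35), Igf2 against MUNC spliced cells (0.86 and 0.93), Cdh5 against MUNC spliced cells (1.28 and 1.55) and, with DESeq2, Gm7325 against MUNC spliced cells (4.98). The cause was not tested. Within MUNC genomic cells edgeR called 3489 genes higher and 3650 lower and DESeq2 3932 and 3569, and no named gene reversed its response. Genes near 0 FPM, such as most interferon-stimulated ones, are limited by depth.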
